A study of Homo sapiens with 53 samples.

Results

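The regions described here are the genomic sites at which all 3 tagged TET proteins gave a peak in DMSO-treated cells. They were chosen from the chromatin immunoprecipitation sequencing (ChIP-seq) peak list of Flag-TET2 under DMSO. Rows that overlapped or touched were merged, and a merged peak was taken where it overlapped a TET1 row and a TET3 row of the DMSO lists by at least 1 bp. The rule took 803 of the 1233 TET2 peaks (65.1%, exact 95% interval 62.4 to 67.8), and the 10 lists of the series hold 706206 merged peaks in all. At a -log10 q of at least 5 in all lists the rule gave 485 sites, and at 10 it gave 287. Of the other 430 TET2 peaks, 65 overlapped a TET1 peak only, 167 a TET3 peak only and 198 neither. A further 2736 TET1 peaks overlapped a TET3 peak and no TET2 peak.

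All cells were HEK293T, a human embryonic kidney line, or edited lines derived from it that carry Flag-tagged TET1, TET2 or TET3. Treatment lasted 72 h, with BPK-25 at 30 µM or, in control cells, with the solvent DMSO. The TET lists come from a Flag antibody in the tagged lines, and the CTCF and MBD3 lists come from antibodies against those proteins in cells without a tag. Each group had 3 labelled immunoprecipitate replicates, except TET2 under DMSO with 2, and the deposited list of a group was taken as pooled over its replicates. The DMSO TET2 list, which chose the sites, is itself named for 3 replicates, so the number behind it is uncertain. There is therefore 1 list per target and treatment, no spread between replicates and no test between treatments. The labels do not say whether a tagged line is 1 clone or at what level the tagged protein is made. A Flag immunoprecipitate of cells without a tag was not analysed here, so signal that the antibody gives without a tagged TET protein cannot be told apart from TET signal. A peak at the same place in all 3 lines carries that limit too.

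TET proteins are dioxygenases that oxidise 5-methylcytosine in DNA, the first step of active demethylation. The long forms of TET1 and TET3 carry a CXXC zinc finger that binds unmethylated CpG, which TET2 lacks. CTCF is a zinc-finger protein that binds DNA at insulators and loop anchors. MBD3 is a subunit of NuRD, a complex that joins nucleosome remodelling with histone deacetylation, and BPK-25 is an electrophilic small molecule described in human T cells as lowering NuRD proteins.

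Under DMSO the sites were wider than the other TET2 peaks, with a median width of 249 bp (quartiles 204 and 324.5 bp), against 204 bp (184 and 243 bp) for the other TET2 peaks. Fold enrichment, the authors' ratio of fragment pileup to local background at a summit, had a median of 5.90 at the sites in the TET1 list, 5.59 in the TET2 list and 6.99 in the TET3 list. These 3 lists chose the sites by overlap, which wider peaks meet more easily, so those values and the widths are a description. A median of 32 fragments stood at a summit in the TET1 list, 22 in the TET2 list and 32 in the TET3 list. The TET1 and the TET3 summit were each a median of 22 bp from the TET2 summit, and the overlap rule itself favours short distances. The CTCF summit lay a median of 114 bp away and the MBD3 summit 58 bp away, where the site overlapped a peak of that protein. The CTCF and MBD3 lists did not choose the sites, so these distances do not compare like with like.

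The sites included most of the strongest TET1 and TET3 peaks of both treatments and most of the strongest TET2 peaks under BPK-25. Local background, the level against which a summit is scored, reached 20 or more times the genome background at some peaks, and these were set aside for this count. Of the 100 peaks of highest -log10 q that remained, 97 lay at the sites in the DMSO TET1 list and 93 in the DMSO TET3 list. Over all remaining peaks of those lists the shares were 13.0% and 5.42%. Both DMSO lists chose the sites by overlap, so these numbers are a description. In the BPK-25 lists, which chose nothing, 90 of the 100 strongest TET1 peaks lay at the sites, as did 93 of the TET2 peaks and 79 of the TET3 peaks. Over all remaining peaks the shares were 57.4% of 352 for TET1, 72.9% of 339 for TET2 and 4.83% of 13262 for TET3. The corresponding numbers were 5 for CTCF and 6 for MBD3 under BPK-25, and 10 for each under DMSO. These too lay above the shares over all remaining peaks. Those shares were 0.173% for CTCF and 0.188% for MBD3 under BPK-25, and 0.553% and 0.886% under DMSO. With the DMSO TET2 peaks in 5 classes of equal size by -log10 q, the sites took up 90.3% of the strongest class and 38.9% of the weakest. The DMSO TET lists chose the sites, so these shares are likewise a description.

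The 3 lines ranked the sites alike. Across 787 sites outside high local background, pileup over genome background gave a Spearman rho of 0.828 between TET1 and TET2, 0.799 between TET2 and TET3 and 0.846 between TET1 and TET3. These points share the antibody and the threshold of each list, the same 3 lists chose the sites, and genome positions are not independent. For fold enrichment, in which local background is divided out, the same values were 0.682, 0.644 and 0.675. TET2 fold enrichment gave a rho of 0.07 with MBD3 over 735 sites and of -0.003 with CTCF over 552 sites. For pileup over genome background at the same sites, rho was 0.240 with MBD3 and 0.107 with CTCF. The CTCF and MBD3 lists used other antibodies in cells without a tag and did not choose the sites. Their values and those between the TET lines therefore do not compare like with like. Relative to genome background, TET3 had the highest pileup of the 3 lines at 368 of the 787 sites, TET2 at 242 and TET1 at 177.

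Under BPK-25 the sites retained TET3 peaks far more often than TET1 or TET2 peaks. A TET1 peak was present in the BPK-25 list at 218 of 803 sites (27.1%, exact 95% interval 24.1 to 30.4), against 20.4% of all 1233 DMSO TET2 peaks. For TET2 it was 259 sites (32.3%, 29.03 to 35.6), against 24.7% of all, and the share was 50.5% at a -log10 q of at least 10. For TET3 it was 666 sites (82.9%, 80.2 to 85.5), against 67.7% of all. Of the 430 other TET2 peaks, 33 overlapped a BPK-25 TET1 peak (7.67%), 45 a TET2 peak (10.5%) and 169 a TET3 peak (39.3%). By the rule, 365 of these had no DMSO TET1 peak and 263 no DMSO TET3 peak to retain, so only the TET2 shares compare peaks that were present under DMSO in both sets. Among the other TET2 peaks that had the DMSO peak in question, 6 of 65 had a BPK-25 TET1 peak (9.23%) and 79 of 167 a BPK-25 TET3 peak (47.3%). The intervals cover counting error only. The lists differ in length, since TET1 had 447 peaks under BPK-25 and 5951 under DMSO. TET2 had 509 and 1233 peaks, and TET3 had 13360 and 14129, so a site without a peak is a site below the threshold of that list.

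**Figure D1:**
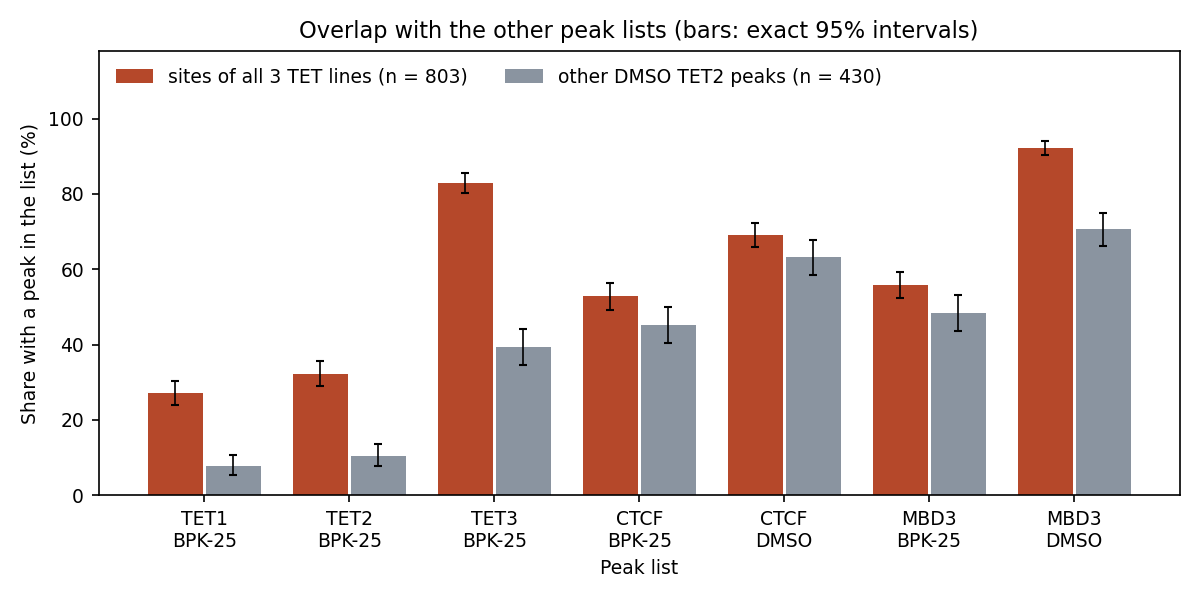
Share of the 803 sites of all 3 TET lines and of the 430 other DMSO TET2 peaks that overlap a peak in each of 7 lists by at least 1 bp. Bars are shares in percent and error bars exact 95% intervals for counting error. Of the other peaks, 365 had no TET1 peak and 263 no TET3 peak under DMSO by the rule. The sites stand at 82.9% in the BPK-25 TET3 list, against 27.1% in the TET1 list and 32.3% in the TET2 list.

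Most of what the other TET2 peaks retained in TET2 lay at high local background. Among the 787 sites outside it, 244 had a BPK-25 TET2 peak (31.0%), against 6 of 390 other TET2 peaks (1.54%, exact 95% interval 0.567 to 3.32). A BPK-25 TET1 peak was present at 204 of these sites (25.9%), against 1 of the 60 other TET2 peaks with a DMSO TET1 peak (1.67%, 0.0422 to 8.94). A BPK-25 TET3 peak was present at 651 of the sites (82.7%), against 72 of the 159 other TET2 peaks with a DMSO TET3 peak (45.3%, 37.4 to 53.4). Of the DMSO TET1 and TET3 peaks that lay at no site, here at any local background, 62 of 5162 TET1 peaks (1.20%) and 3844 of 13346 TET3 peaks (28.8%) were retained. Of those retained, 50 TET1 peaks and 3828 TET3 peaks lay outside high local background under DMSO. The sites were the stronger peaks, and the part of strength in these gaps was not tested for TET1 and TET3.

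At the sites, nearly all BPK-25 TET1 and TET2 peaks stood together with a TET3 peak. All 3 TET proteins had a BPK-25 peak at 179 sites (22.3%), against 16.4% of all DMSO TET2 peaks. TET3 alone had one at 374 sites (46.6%), against 32.1% of the other TET2 peaks. TET2 with TET3 was found at 76 sites (9.46%, against 1.40% of the other TET2 peaks) and TET1 with TET3 at 37 (4.61%, against 0.465%). Of the 218 sites with a TET1 peak under BPK-25, 216 also had a TET3 peak, and so did 255 of the 259 sites with a TET2 peak. TET3 was common without them too, at 76.9% of the 585 sites with no TET1 peak and 75.6% of the 544 with no TET2 peak. Of the 259 sites with a TET2 peak, 180 had a TET1 peak (69.5%). TET2 alone was found at 3 sites, TET1 alone at 1 and TET1 with TET2 at 1. No TET peak was left at 132 sites (16.4%), against 30.6% of all DMSO TET2 peaks and 57.0% of the other TET2 peaks, each of which lacked a TET1 or a TET3 peak under DMSO by the rule.

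**Figure D2:**
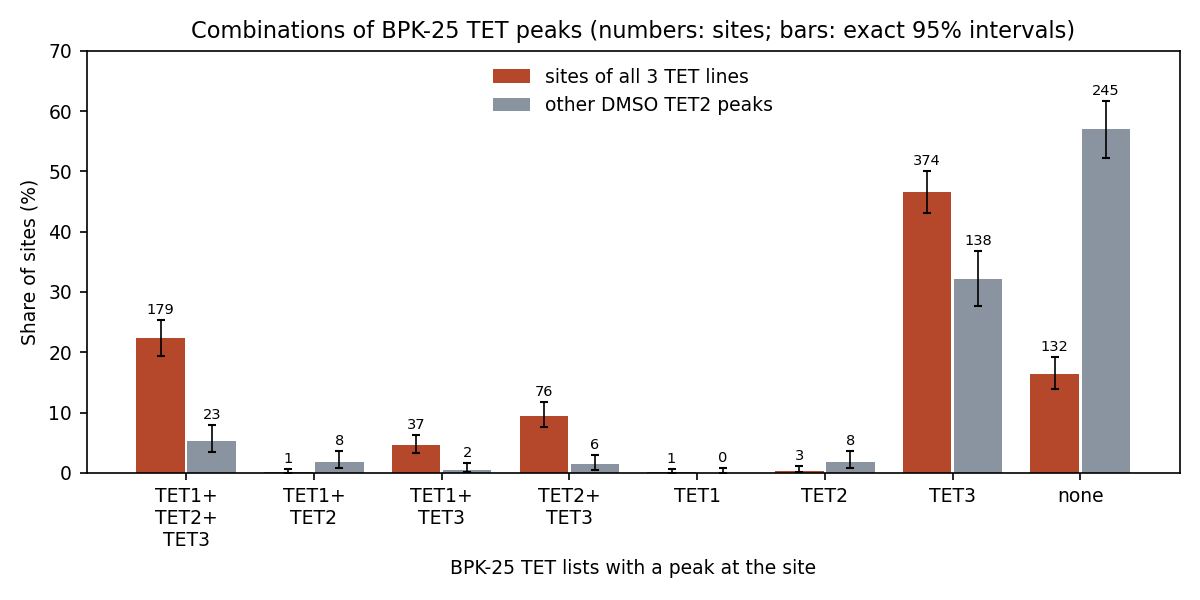
Share of sites, in percent, by the BPK-25 TET lists with a peak there, for the 803 sites of all 3 TET lines and the 430 other DMSO TET2 peaks. By the rule, 365 of the other peaks had no TET1 peak and 263 no TET3 peak under DMSO. Numbers over the bars count sites and error bars are exact 95% intervals for counting error. TET3 alone is the most frequent combination at the sites (374) and no peak the most frequent at the other peaks (245).

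Retention was higher where the DMSO TET2 peak was stronger. Outside high local background, BPK-25 TET1 peaks were present at 2.08% of sites in the weakest of the 5 classes of DMSO TET2 -log10 q, 4.39% in the second, 14.2% in the third, 32.04% in the fourth and 51.7% in the strongest. The shares for TET2 were 1.04%, 7.02%, 11.7%, 37.4% and 66.5%, and those for TET3 were 66.7%, 74.6%, 76.5%, 85.4% and 96.7%. Even the weakest class kept a TET3 peak at 64 of 96 sites. TET2 is the protein that both sets had under DMSO. In the weakest class 1 of 96 sites and 0 of 145 other peaks had a BPK-25 TET2 peak, so little gap was seen there. In the second class it was 7.02% of sites (exact 95% interval 3.08 to 13.4) and 2.33% of 129 other peaks (0.482 to 6.65), with overlapping intervals. The other peaks of the third class stood at 1.22% of 82 and those of the fourth at 2 of 33 (6.06%). The sites of the fourth class had a BPK-25 TET2 peak at 77 of 206. The strongest class holds 1 other peak outside high local background and gives no comparison.

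**Figure D3:**
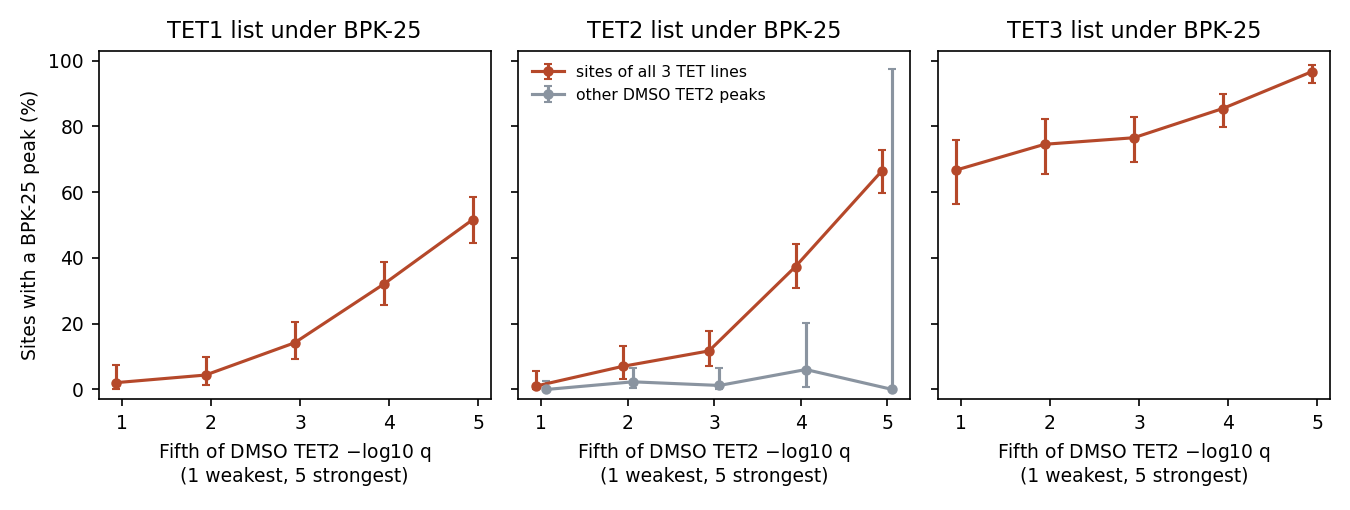
Share of peaks, in percent, with a BPK-25 peak of TET1, TET2 or TET3, in 5 classes of equal size by DMSO TET2 -log10 q, outside high local background. Points are the sites of all 3 TET lines and, for TET2, also the other DMSO TET2 peaks, with exact 95% intervals for counting error. The sites reach 51.7% for TET1, 66.5% for TET2 and 96.7% for TET3 in the strongest class, where the other peaks number 1.

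Where a site outside high local background had a peak in both treatments, the number of fragments was lower under BPK-25 and so was the local background. For TET1 the median pileup over genome background was 15.4 under BPK-25 and 25.7 under DMSO at 204 sites, and the median ratio of BPK-25 to DMSO was 0.547. For TET2 it was 19.6 under BPK-25 and 24.8 under DMSO at 244 sites, with a ratio of 0.808, and for TET3 it was 15.8 and 21.2 at 651 sites, with a ratio of 0.773. Local background had median ratios of 0.597 (TET1), 0.585 (TET2) and 0.658 (TET3). Fold enrichment divides one by the other after a small fixed count is added to each, which weighs more where local background is low. It had a median ratio of 0.820 for TET1, 1.17 for TET2 and 1.09 for TET3. The part of the lower local background and of the added count in these fold enrichments was not tested. A lower local background was also seen at retained peaks outside the sites, where the ratio was 0.582 over 50 TET1 peaks and 0.717 over 3828 TET3 peaks. Sites with no BPK-25 peak have no value and are not in these medians.

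The strongest sites by DMSO TET2 -log10 q fell into a pair of kinds. Of the top 10 on chromosomes 1 to 22 and X, 6 lay at high local background and had low fold enrichment. The first was chr1:121484402-121485406 (hg19), with a TET2 fold enrichment of 2.87 under BPK-25 and 1.99 under DMSO on a pileup of 10804 and 9463 fragments. The other 4 were peaks of high fold enrichment, 314 to 1210 bp wide, with TET2 and TET3 peaks under BPK-25 and no TET1 peak. At chr17:1372451-1372909 TET2 fold enrichment was 19.8 under BPK-25 and 50.4 under DMSO, and TET3 was 32.1 and 64.3. TET1 there was 39.6 under DMSO, and no CTCF peak was present in either treatment. At chrX:1324263-1325472 TET2 was 20.5 under BPK-25 and 36.4 under DMSO, TET3 was 28.0 and 50.8, and TET1 was 29.1 under DMSO only. At chr18:11688992-11689305 TET2 was 8.31 under BPK-25 and 41.8 under DMSO, TET3 was 19.7 and 40.8, and TET1 was 28.2 under DMSO only. These 4 sites did not overlap a CTCF peak under DMSO, apart from the fourth, on chromosome 8, where CTCF fold enrichment was 11.3.

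The 5 strongest sites with a peak of all 3 proteins under BPK-25, outside high local background, lay on chromosomes 17, 1 and 6. At chr1:145399080-145399431 fold enrichment of TET1 was 14.1 under BPK-25 and 11.0 under DMSO. TET2 was 13.7 and 18.2 and TET3 was 22.7 and 16.8, with no CTCF peak and an MBD3 peak of 5.45 under DMSO only. At chr6:27573326-27573596 TET1 was 9.33 under BPK-25 and 7.45 under DMSO, TET2 was 12.7 and 13.3, and TET3 was 23.8 and 10.3. At chr17:80452409-80452816 a strong CTCF peak was present as well, of 3.92 under BPK-25 and 157 under DMSO. TET3 there was 20.5 under BPK-25 and 17.04 under DMSO. In each of the 5, TET3 fold enrichment was higher under BPK-25, where local background was lower. Pileup over genome background was higher under BPK-25 at chr17:66015907-66016180, with 43.8 under BPK-25 and 38.3 under DMSO, and at the site on chromosome 6, with 37.7 and 31.2. It was lower at the other 3, as at chr17:80452409-80452816 with 41.9 under BPK-25 and 64.3 under DMSO.

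The strongest sites that retained no TET peak had DMSO TET2 fold enrichments of 7.23 to 10.2. At chr2:224810116-224810317 DMSO values were 21.9 for TET1, 10.1 for TET2 and 8.76 for TET3. CTCF there was 11.2 under BPK-25 and 4.72 under DMSO, and MBD3 was 11.5 and 12.8, so peaks of those proteins were present where no TET peak was. At chr3:72646922-72647192, by contrast, no CTCF or MBD3 peak was present in either treatment, and DMSO values were 7.74 for TET1, 10.2 for TET2 and 9.29 for TET3.

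Most sites overlapped MBD3 under DMSO. An MBD3 peak was present in the DMSO list at 741 sites (92.3%, exact 95% interval 90.2 to 94.03), against 84.8% of all DMSO TET2 peaks and 70.7% of the other ones. The DMSO share at the sites was 75.6% at a -log10 q of at least 10 and 71.6% with summits within 200 bp. Under BPK-25 an MBD3 peak was present at 448 sites (55.8%, 52.3 to 59.3), against 53.2% of all. That share was 25.4% at a -log10 q of at least 10 and 35.5% with summits within 200 bp. Fold enrichment at the sites was modest, with a median of 4.98 under BPK-25 and 6.25 under DMSO. The 2736 sites of TET1 and TET3 without TET2 overlapped MBD3 at a like share, of 92.5% under DMSO and 64.4% under BPK-25. These lists are of different strength, and BPK-25 gave longer MBD3 and CTCF lists than DMSO, at 243213 and 82358 peaks for MBD3 and 245419 and 99587 for CTCF.

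CTCF divided the sites. A DMSO CTCF peak was present at 555 sites (69.1%), against 67.1% of all DMSO TET2 peaks, and a BPK-25 CTCF peak at 424 sites (52.8%), against 50.1% of all. Both shares lie near that of all TET2 peaks. The BPK-25 share was 25.4% at a -log10 q of at least 10 and 33.8% with summits within 200 bp. The CTCF fold enrichment under DMSO was lower at the sites than at the other TET2 peaks, with a median of 11.4 (quartiles 4.81 and 68.9) against 42.0 (7.02 and 112.5). It was 20 or more at 219 sites, which are 39.5% of the 555 with CTCF, against 61.4% of the other TET2 peaks with CTCF and 37.5% of all 99587 CTCF peaks. Of all DMSO TET2 peaks, with or without CTCF, 31.3% had such a peak. It lay between 4 and 8 at 136 of the sites, between 16 and 32 at 53 and in the doubling above 64 at 94, so the distribution had a low and a high part. Both CTCF and MBD3 were present at 547 sites (68.1%), against 54.9% of the other TET2 peaks. MBD3 alone was present at 194 (24.2%, against 15.8%), CTCF alone at 8 (0.996%, against 8.37%) and neither at 54 (6.72%, against 20.9%).

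**Figure D4:**
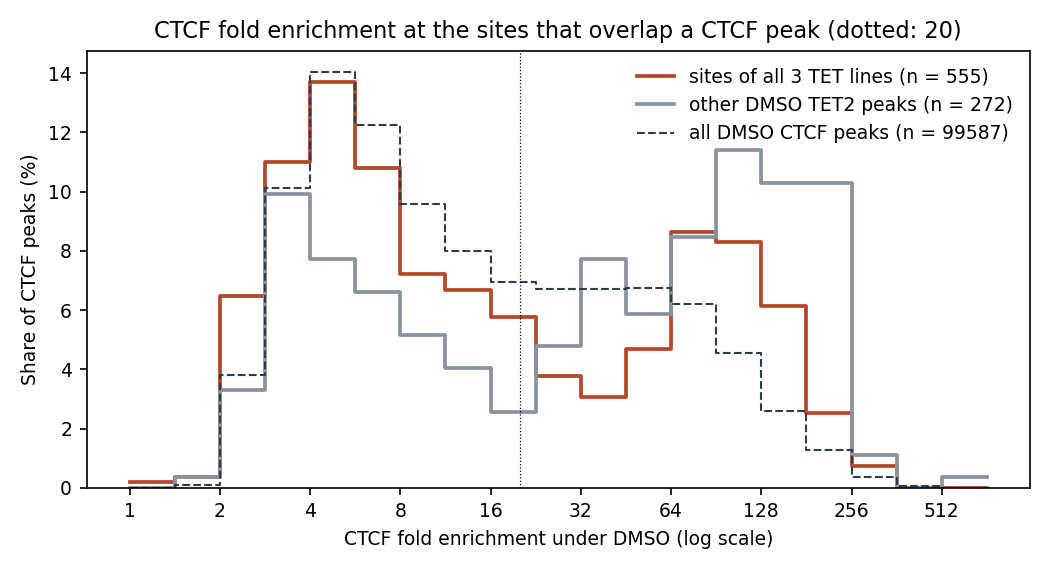
Distribution of CTCF fold enrichment under DMSO, on a log axis, at the 555 sites of all 3 TET lines, at the 272 other TET2 peaks that overlap a CTCF peak and over all 99587 CTCF peaks, as a percentage of each. The dotted line marks a fold enrichment of 20, reached by 39.5% of the sites and 61.4% of the other TET2 peaks.

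Sites without CTCF retained TET1 and TET2 most often. A BPK-25 TET1 peak was present at 40.7% of the 248 sites with no DMSO CTCF peak, at 18.5% of the 336 sites with a CTCF fold enrichment under 20 and at 25.1% of the 219 sites with 20 or more. For TET2 the shares were 50.8%, 18.8% and 31.96% in the same order. TET3 varied less, at 83.5%, 78.9% and 88.6%. The sites without CTCF were also stronger under DMSO, with a median TET2 fold enrichment of 6.67 against 5.35 and 5.19, and a median TET1 one of 7.74 against 5.32 and 5.28. The part of this strength in the shares was not tested. Where all 3 proteins retained a peak, the sites less often had CTCF or MBD3 peaks under BPK-25. A BPK-25 MBD3 peak was present at 31.8% of the 179 sites with all 3 TET proteins and at 71.2% of the 132 sites with none. A BPK-25 CTCF peak was present at 32.4% and 67.4%. Under DMSO a CTCF peak was present at 52.0% and 72.0% of the same sites and an MBD3 peak at 88.8% and 94.7%. The 179 sites were also stronger, with a median DMSO TET2 fold enrichment of 7.51 against 4.92, and the part of strength in these shares was not tested.

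Of the 54 sites without CTCF or MBD3 under DMSO, 46 had a BPK-25 TET3 peak (85.2%), near the 82.9% of all sites, and the 5 strongest were among them. At chr22:51198425-51198776 TET2 fold enrichment was 6.76 under BPK-25 and 21.8 under DMSO, TET3 was 20.8 and 18.6, and TET1 was 13.2 under DMSO only. At chr14:21099242-21099473 TET1 was 7.99 under BPK-25 and 7.04 under DMSO, TET2 was 9.28 and 12.3, and TET3 was 9.37 and 6.13.

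The sites were unevenly spread over the chromosomes. Of the 793 on chromosomes 1 to 22 and X, 130 lay on chromosome 1, 100 on chromosome 6 and 79 on chromosome 17, together 39.0%. The same 3 chromosomes held 20.6% of the other TET2 peaks, 28.9% of the TET1 peaks with TET3 and no TET2, 21.5% of DMSO MBD3 peaks, 19.5% of DMSO CTCF peaks and 21.4% of protein-coding genes. They held 52.0% of the sites with all 3 BPK-25 TET peaks and 47.7% of the sites without CTCF. Of the 10 sites elsewhere, 2 lay on chromosome Y and 8 on alternate sequences.

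Within these chromosomes the sites lay in groups. Joined where they stood within 100 kb, 251 of 793 sites (31.7%) were in groups of 3 or more, against 4.31% of 418 other TET2 peaks. Each set was joined only with itself, and a larger set forms groups more easily. The part of the unequal number in this gap was not tested. The largest held 24 sites at chr6:27446497-27870874, and the stretch of chromosome 6 from 26 to 29 Mb held 69 sites and 2 other TET2 peaks. All 69 had a BPK-25 TET3 peak, 53 a TET2 peak and 50 a TET1 peak, while 18 had a CTCF peak and 59 an MBD3 peak under DMSO, and 5 and 7 under BPK-25. Other large groups were 17 sites at chr1:161369438-161591558, 14 at chr17:8022439-8130460, 11 at chr5:180524260-180649604 and 10 at chr14:21077439-21152381. TET3 was retained at 16 of the 17, 14 of the 14, 11 of the 11 and 10 of the 10.

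As background, genes for transfer RNA, transcribed by RNA polymerase III, cluster in the human genome on the short arm of chromosome 6, on chromosome 1 and on the short arm of chromosome 17, and the short arm of chromosome 6 also holds the largest cluster of histone genes. RefSeq on GRCh38.p14 lists 443 tRNA genes on chromosomes 1 to 22 and X, of which 64.6% lie on chromosomes 1, 6 and 17. It lists 74 genes of the replication-dependent histone families and H1, 55 of them on chromosome 6. Over 23 chromosomes, the number of sites and the number of tRNA genes had a Pearson r of 0.843 and a Spearman rho of 0.854. For the other TET2 peaks and tRNA genes r was 0.371 and rho 0.515. For the sites without CTCF r was 0.955 and rho 0.751, so r was higher and rho lower than over all sites. The number of sites went as closely with other features, with an r of 0.813 and a rho of 0.874 for protein-coding genes, 0.820 and 0.802 for DMSO MBD3 peaks, and 0.923 and 0.869 for TET1 peaks with TET3 and no TET2. The relation is therefore not particular to tRNA genes. The counts share chromosome length, and chromosomes 1 and 6 weigh heavily in r. This relation was chosen after the counts were seen. The files and RefSeq use different builds, so no site was assigned to a gene, and whether the sites lie at tRNA or histone genes was not tested.

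**Figure D5:**
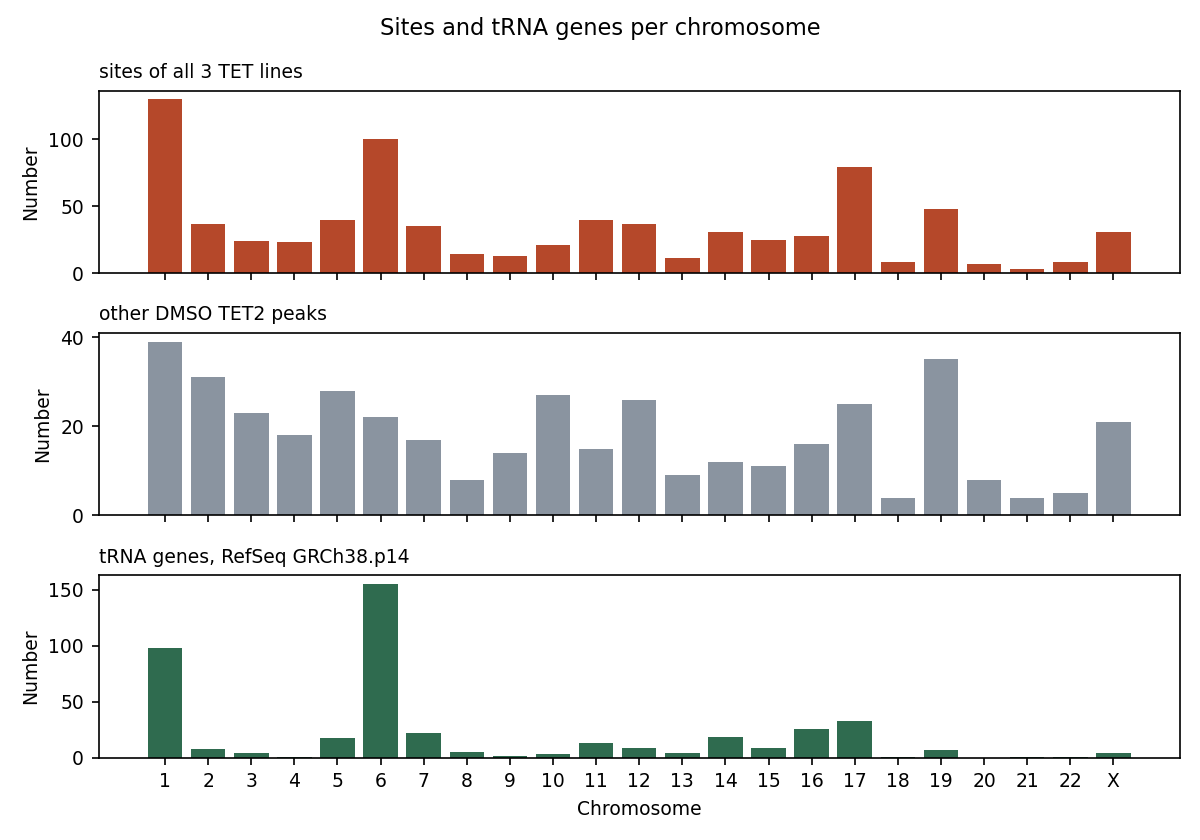
Number of sites of all 3 TET lines (hg19), of other DMSO TET2 peaks (hg19) and of tRNA genes (RefSeq, GRCh38.p14) on each of chromosomes 1 to 22 and X. Chromosomes 1, 6 and 17 hold 130, 100 and 79 sites and 64.6% of tRNA genes, against 20.6% of the other TET2 peaks.

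High local background was found at 16 sites (1.99%), against 4.54% of all DMSO TET2 peaks and 9.30% of the other ones. Their TET2 fold enrichment under DMSO was 1.44 to 3.23, and 14 of the 16 had a peak in all 3 BPK-25 TET lists. Among the other TET2 peaks at high local background it was 23 of 40. TET1 under DMSO and TET3 in both treatments were higher at chr6:74229833-74230136 and chr6:74230456-74230922. Both sites overlapped the same DMSO TET1 peak, with a fold enrichment of 6.62. They also shared their TET3 peaks, of 16.3 under BPK-25 and 9.26 under DMSO. TET1 under BPK-25 was 3.30 and 2.71 there, below TET2 at 5.40 and 3.71. The DMSO pileup was 5204 fragments for TET1 and 12058 for TET3, against 123 and 114 for TET2. Local background under DMSO was 425 (TET1), 767 (TET3) and 34.9 and 37.0 (TET2) times the genome background. At the DMSO CTCF and MBD3 peaks there it was 1.86 and 2.11 times. One group of 5 sites at high local background lay at chr2:92296074-92324637, with a median local background of 205 times the genome background.

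The overlap rule left few sites near its edge. The smallest overlap was 4 bp, 6 sites overlapped TET1 or TET3 by less than 50 bp, and 26 were covered over under 50% of their length. At the edge inside the rule, chr15:67547129-67547302 had DMSO fold enrichments of 3.18 for TET1, 5.28 for TET2 and 5.56 for TET3. Just outside it, chr16:22824550-22824736 had 5.46 for TET1 and 6.58 for TET2 with no overlapping TET3 peak. Of the other TET2 peaks, 48 had a peak of the missing kind within 1000 bp.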

How the data were processed

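The deposited MACS2 narrowPeak lists give, for each summit, a fold enrichment, the authors' ratio of pileup over local background. They also hold -log10 p-values and -log10 q-values from the authors' peak caller. The submitters' processing notes list MACS2 2.1.2, bedtools 2.25.0, SAMtools 1.9, Bowtie2 2.3.4 and FastQC 0.11.7, with hg19 as build and no roles. Libraries were paired-end, per the labels. Read totals were not used here, and the lowest local background of each list served as its genome background, between 1.05 and 3.68 fragments.

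Rows that overlapped or touched were merged, and each peak kept its summit of highest -log10 q. Pileup and local background were solved from fold enrichment and the Poisson -log10 p, and the method was tested on simulated data. Fold enrichment was taken as pileup over local background after a count of 1 was added to each. Shares carry exact Clopper-Pearson 95% intervals. Coordinates are 1-based hg19. Python 3.11.15, pandas 2.3.3, NumPy 2.4.6 and SciPy 1.17.1 were used.

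Regions were named by rule: the 10 sites of highest DMSO TET2 -log10 q on chromosomes 1 to 22 and X, the 5 highest outside high local background with all 3 BPK-25 TET peaks, with none, and without CTCF or MBD3 under DMSO, and the 3 nearest the edge on either side. Groups of sites were named after their counts were seen. The sites and the lists of this report were chosen with earlier results of these data known. Alternatives were stricter -log10 q, other merging and overlap, fewer chromosomes and leaving out high local background. Leaving out chromosomes 1, 6 and 17 was chosen after seeing the data. With no hg19 sequence or annotation used here, neither genes nor sequences are given.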

Additional observations from a re-analysis of the deposited data

Results flagged for a closer look

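At the 165 sites with a peak in all 3 BPK-25 TET lists and outside high local background, the median ratio of fold enrichment under BPK-25 to that under DMSO was 0.823 for TET1, 1.28 for TET2 and 1.34 for TET3. The median for TET1 lay below 1 and those for TET2 and TET3 above 1 at the same sites. This difference between the lines was not tested, since each line has 1 pooled list per treatment. Fold enrichment was higher under BPK-25 at 58 of the 165 sites for TET1, 116 for TET2 and 127 for TET3. Relative to genome background the pileup ratio was 0.551 for TET1, 0.886 for TET2 and 0.906 for TET3, and the ratio of local background was 0.609, 0.563 and 0.608, so the pileup was below its DMSO level in all 3 medians.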

How the results depend on the processing

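No paired analysis was possible because each list pools its replicates, and leaving out a replicate was not run for the same reason. Depth sets which weak peaks are listed, and 1 list per group gives no spread. At a -log10 q of at least 5 in all lists there were 485 sites, of which 36.9% had a BPK-25 TET1 peak, 45.2% TET2, 86.6% TET3, 40.2% CTCF and 40.2% MBD3, and 57.1% a DMSO CTCF and 87.6% a DMSO MBD3 peak. At 10 there were 287 sites with 37.6%, 50.5%, 86.4%, 25.4%, 25.4%, 48.1% and 75.6% in that order. With 50% of the TET2 peak covered (777 sites), BPK-25 CTCF was at 39.8%, DMSO CTCF at 61.3%, BPK-25 MBD3 at 42.1% and DMSO MBD3 at 89.3%. With summits within 200 bp (698 sites), BPK-25 TET3 was at 80.1%, BPK-25 CTCF at 33.8%, DMSO CTCF at 48.1%, BPK-25 MBD3 at 35.5% and DMSO MBD3 at 71.6%. Without chromosomes 1, 6 and 17 (494 sites), BPK-25 TET1 was at 21.7%, TET2 at 27.5%, TET3 at 79.8%, CTCF at 58.5% and MBD3 at 61.3%, and DMSO CTCF at 73.1%.

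At a -log10 q of at least 5 the median fold enrichment under BPK-25 was 7.75 for TET1, 10.6 for TET3, 5.42 for CTCF and 5.33 for MBD3, and under DMSO 7.86 for TET1, 6.95 for TET2, 8.91 for TET3 and 6.58 for MBD3. At sites with a peak in all 6 TET lists it was 9.77 for TET2, 14.7 for TET3, 4.62 for CTCF and 4.15 for MBD3 under BPK-25, and 9.08 for TET1, 7.51 for TET2, 10.4 for TET3, 24.9 for CTCF and 5.47 for MBD3 under DMSO. With summits within 200 bp it was 4.58 for CTCF and 4.74 for MBD3 under BPK-25. Pileup over genome background moved to 21.9 for BPK-25 TET3 and, under DMSO, to 22.7 for TET1, 22.4 for TET2 and 24.8 for TET3 at the stricter -log10 q. In all 6 TET lists it was 22 for TET2 and 28 for TET3 under BPK-25, and 28.1 for TET1, 25.6 for TET2 and 31.2 for TET3 under DMSO. A stricter -log10 q and a peak in all 6 lists keep the stronger sites by construction. Under each setting in which retention was counted, TET3 was retained more often than TET1 or TET2. Chromosomes 1 to 22 and X alone, merging within 500 bp and leaving out high local background moved none of the counts, shares and medians they were run for beyond the limits used.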

Other observations

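One group of sites was evenly spaced. On the long arm of the X chromosome 11 sites at chrX:114960485-114996474 had summits a median of 2976 bp apart (quartiles 2964 and 3015 bp). All 11 overlapped a DMSO CTCF peak of 86.1 to 138 in fold enrichment. All 11 had a BPK-25 TET3 peak, and none had a TET1 or TET2 peak. Their median local background was 10.4 times the genome background. As background, this arm holds DXZ4, a macrosatellite array that binds CTCF, and no site was assigned to it.

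On chromosome 19, 12 sites at chr19:50595732-50642541 had summits a median of 5334 bp apart (quartiles 3058 and 5360.5 bp), and 11 of them had a CTCF fold enrichment of 20 or more. In contrast to the group on the X chromosome, 9 of the 12 had a BPK-25 TET1 peak, 11 a TET2 peak and 12 a TET3 peak. RefSeq on GRCh38.p14 places 26 of 28 SNAR genes, which encode small RNAs made by RNA polymerase III, on chromosome 19, and all 17 RNA5S genes for 5S ribosomal RNA on chromosome 1. At chr1:228745978-228781918 there were 6 sites, all with a BPK-25 TET3 peak, 1 with a TET2 peak and 0 with a TET1 peak. Whether these groups lie at those genes was not tested. These groups were chosen after their values were seen.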
